A study of Homo sapiens with 34 samples.

Results

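The comparison is between media, 24 h into differentiation of ESI017, an established line of human embryonic stem cells: APS, for cells directed to the anterior primitive streak, and DE(a), the first day of a definitive endoderm protocol. The 4 libraries chosen are all those labelled APS or DE(a) at 24 h, 2 replicates of each, of 34 libraries in 17 conditions. DE(a) medium held activin A at 100 ng/ml and CHIR99021 at 2 µM. APS medium held less activin A (30 ng/ml), more CHIR99021 (4 µM) and, in addition, bFGF at 20 ng/ml, both in the same basal medium with neither BMP4 nor a BMP inhibitor. All 3 factors differ between the media at once, so their effects on a gene cannot be told apart. The other conditions were 2 more posterior streak media at 24 h (MPS and PPS), an undifferentiated control labelled 48 h, and cells moved from each of the 4 day 1 media into DE(b), PM or LM medium until 48 h. Each library is polyadenylated RNA from a whole culture, so fewer cells of a type and less RNA per cell cannot be told apart.

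The primitive streak is the strip of the gastrulating embryo through which cells pass to become endoderm and mesoderm. Activin stands in for Nodal, the ligand whose high levels favour endoderm and the anterior streak, while CHIR99021 inhibits GSK3 and so raises Wnt signaling through beta-catenin, which favours the streak and posterior identity. bFGF activates ERK and supports mesoderm. Cells that leave the streak usually exchange the cadherin of epithelia, CDH1 (E-CAD), for that of mesenchyme, CDH2 (N-CAD).

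The 2 DE(a) libraries held 19288786 and 18634352 estimated counts and the 2 APS libraries 21140822 and 21846785. Levels are given as CPM, counts scaled to the library total. The share of counts from mitochondrially encoded genes was 3.55% and 7.99% in DE(a) and 4.57% and 7.69% in APS, higher in the second replicate of each, and its part in the results was not tested. Differences are log2 fold changes, APS over DE(a), with their standard error (SE), from the quasi-likelihood test of edgeR over all 34 libraries, with the p adjusted over 17895 genes tested of 37951 listed. A gene was called where this adjusted p was under 0.05. With 2 libraries against 2, an exact permutation test of 1 gene cannot give a p below 0.333, so the test rests on the spread pooled over genes and conditions.

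In APS, 109 genes were higher and 22 were lower, together 131 of 17895, or 0.732% (0.609% higher and 0.123% lower). The genes that rose included Wnt ligands and the R-spondin receptor LGR5, the posterior regulators CDX1 and CDX2, the presomitic regulators TBX6 and MSGN1, and BMP4. Those that fell included the Wnt receptors FZD5 and FZD8, the repressor TCF7L1, and the Nodal-related genes GDF3 and LEFTY1. The median absolute log2 fold change of the called genes was 1.61, and 83 of the 109 and 17 of the 22 differed by at least 2-fold. Of the 131, 128 are annotated as protein coding. For all 131 the APS and DE(a) libraries did not overlap, which also held for 17.0% of all genes tested with APS above and 12.3% with APS below.

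The count rests heavily on single libraries: without the first DE(a) library 34 of the 131 remained called, without the second 73, without the first APS library 87 and without the second 59, and none changed sign. In all 4 of these fits 30 genes remained called, among them LGR5, WNT5A, WNT5B, CDX1, CDX2, TBX6, MSGN1, BMP4, TBX3, HAPLN1, RASGRP3, COLEC12, NRP1, PCDH18, PCDH19, SALL1, SP6, LIX1, IGFBPL1, GADD45G and TCF7L1. A further 26 genes remained called in none of the 4, among them APLNR, ZEB2, GDF3, LEFTY1 and PRDM1. Fitting only the 4 libraries called 73 genes in all, 51 of them among the 131 (CDX2 was not called, at an adjusted p of 0.0888). Fitting only the day 1 and control libraries called 111, of which 73 were among the 131 (TBX6 was not, at an adjusted p of 0.0559).

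**Figure D1:**
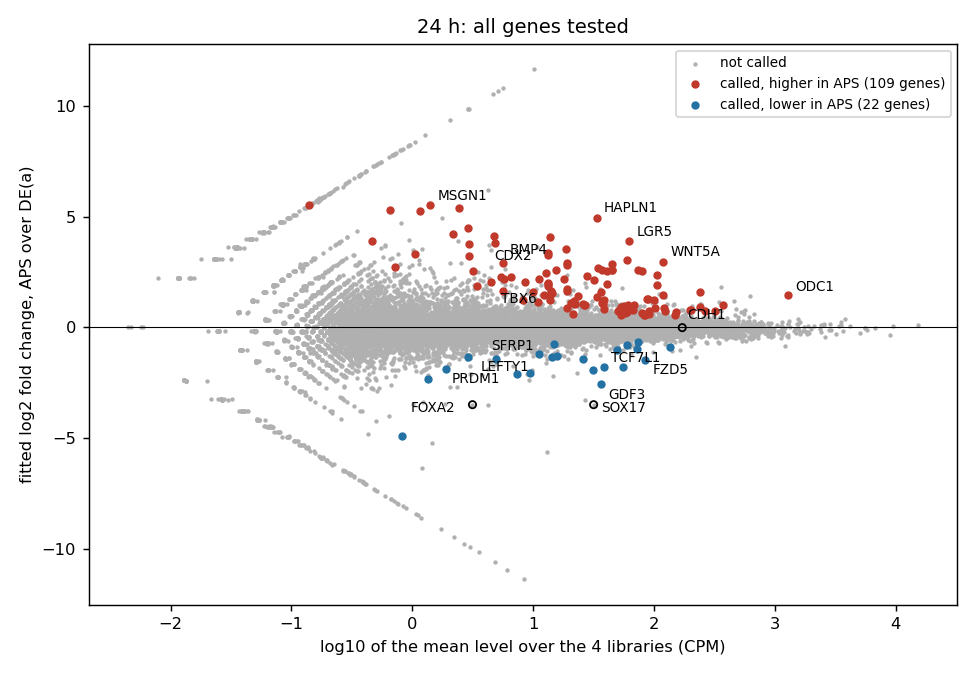
Each point is a gene tested, with the log10 of its mean CPM over the 4 libraries on the x axis and its fitted log2 fold change (APS over DE(a)) on the y axis; genes with no count in the 4 libraries cannot be drawn, and the outer grey lines are genes with counts in 1 group only. Red points are the 109 genes called higher and blue points the 22 called lower; SOX17, FOXA2 and CDH1, circled, were not called.

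Wnt signaling genes moved in both directions. Of 27 feedback genes and targets of the pathway tested, 5 were higher (LGR5, TNFRSF19, LEF1, CDX1 and CDX2) and 2 lower (SFRP1 and TCF7L1), and the median log2 fold change was 0.67, against 0 over all genes tested. Sorted by role, 3 of 14 WNT ligands tested were higher and none lower, and 2 of 6 R-spondins and LGR receptors were higher (LGR5 and RSPO3). Of 10 Frizzled receptors, 0 were higher and 2 lower, but the median log2 fold change of the family was 0.08. For FZD1, FZD3, FZD4 and FZD10 both APS libraries lay above both DE(a) libraries, without a call. In addition, 1 of 4 secreted Frizzled-related proteins was lower. These families were chosen after the called genes had been seen. Calls over all genes tested came to 0.609% higher and 0.123% lower. WLS, which carries WNT proteins to the cell surface, was also higher, at 160.5 and 168 CPM in DE(a) and 314 and 323 CPM in APS (0.94, SE 0.17, adjusted p = 0.00393), though not without the first DE(a) library (adjusted p = 0.0962).

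Among ligands, WNT5A, which acts mainly outside the beta-catenin branch, stood at 22.6 and 31.3 CPM in DE(a) and 208 and 217 CPM in APS, with a log2 difference of 2.96 (SE 0.29, adjusted p = 5.06e-06). WNT5B, its close relative, stood at 11.3 and 14.02 CPM in DE(a) and 84.2 and 129.6 CPM in APS, with a log2 difference of 3.06 (SE 0.43, adjusted p = 0.000348). For both genes every APS library was far above both DE(a) libraries. WNT6 stood at 0.830 and 0.430 CPM in DE(a) and 9.51 and 8.57 CPM in APS, with a log2 difference of 3.81 (SE 0.71, adjusted p = 0.00807), and was no longer called without either DE(a) library (adjusted p up to 0.153). RSPO3, a secreted protein that prolongs Wnt receptor life, stood at 8.51 and 12.7 CPM in DE(a) and 82.5 and 75.02 CPM in APS, with a log2 difference of 2.88 (SE 0.45, adjusted p = 0.00148), and was not called without the first DE(a) library (adjusted p = 0.0860). WNT3A, by contrast, stood at 4.93 and 6.23 CPM in DE(a) and 12.1 and 16.2 CPM in APS and was not called (adjusted p = 0.119).

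Among receptors and nuclear factors, LGR5, the R-spondin receptor known from intestinal stem cells and itself a Wnt target, was among the called genes with the largest rises. It stood at 5.53 and 10.1 CPM in DE(a) and 108 and 126 CPM in APS, with a log2 difference of 3.89 (SE 0.43, adjusted p = 2.03e-05); it lies on chromosome 12 of GRCh38 from 71439798 to 71586310. TNFRSF19, another Wnt target, stood at 2.13 and 2.52 CPM in DE(a) and 17.2 and 30.9 CPM in APS, with a log2 difference of 3.35 (SE 0.50, adjusted p = 0.000761), and missed the threshold without the first DE(a) library (adjusted p = 0.052). LEF1, a factor through which beta-catenin activates its targets, stood at 38.5 and 61.3 CPM in DE(a) and 107 and 142 CPM in APS, with a log2 difference of 1.302 (SE 0.29, adjusted p = 0.037). It was no longer called without the first DE(a) library (adjusted p = 0.669) or the second APS library (0.459). The groups did not overlap for any of these genes. The reference feedback gene AXIN2 stood at 135 and 179.9 CPM in DE(a) and 265 and 398 CPM in APS, above in both APS libraries but not called (1.06, SE 0.32, adjusted p = 0.205). AXIN2 was called when the replicate number entered the fit as a block, and when genes with low counts were kept. SP5, another direct target, stood at 286 and 296 CPM in DE(a) and 334 and 382 CPM in APS and was not called (0.28, SE 0.29, adjusted p = 0.964).

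The Wnt genes called lower were a repressor, 2 of the 10 Frizzled receptors and a secreted inhibitor. TCF7L1, the TCF factor that represses Wnt targets in pluripotent cells, stood at 70.1 and 49.2 CPM in DE(a) and 19.6 and 15.3 CPM in APS, with a log2 difference of -1.79 (SE 0.24, adjusted p = 0.000225); it lies on chromosome 2 from 85133392 to 85310387. FZD5 stood at 128 and 119 CPM in DE(a) and 39.8 and 50.4 CPM in APS, with a log2 difference of -1.47 (SE 0.25, adjusted p = 0.00321), and FZD8 at 51.7 and 23.8 CPM in DE(a) and 15.1 and 12.8 CPM in APS. The FZD8 difference (-1.45, SE 0.34, adjusted p = 0.0421) was -0.79 and not called without the first DE(a) library, and was not called without either APS library. FZD8 was also not called when only the 4 libraries, or only the day 1 and control libraries, were fitted. SFRP1, a secreted protein that binds WNT ligands, stood at 24.7 and 16.6 CPM in DE(a) and 9.02 and 7.36 CPM in APS, with a log2 difference of -1.35 (SE 0.22, adjusted p = 0.00162). SFRP1 was not called without the first DE(a) or the second APS library, and FZD5 was not called without the first DE(a) or the first APS library. In the 2 libraries of the undifferentiated control, SFRP1 stood at 517.5 and 368 CPM and TCF7L1 at 259 and 213 CPM, above all 4 libraries compared.

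**Figure D2:**
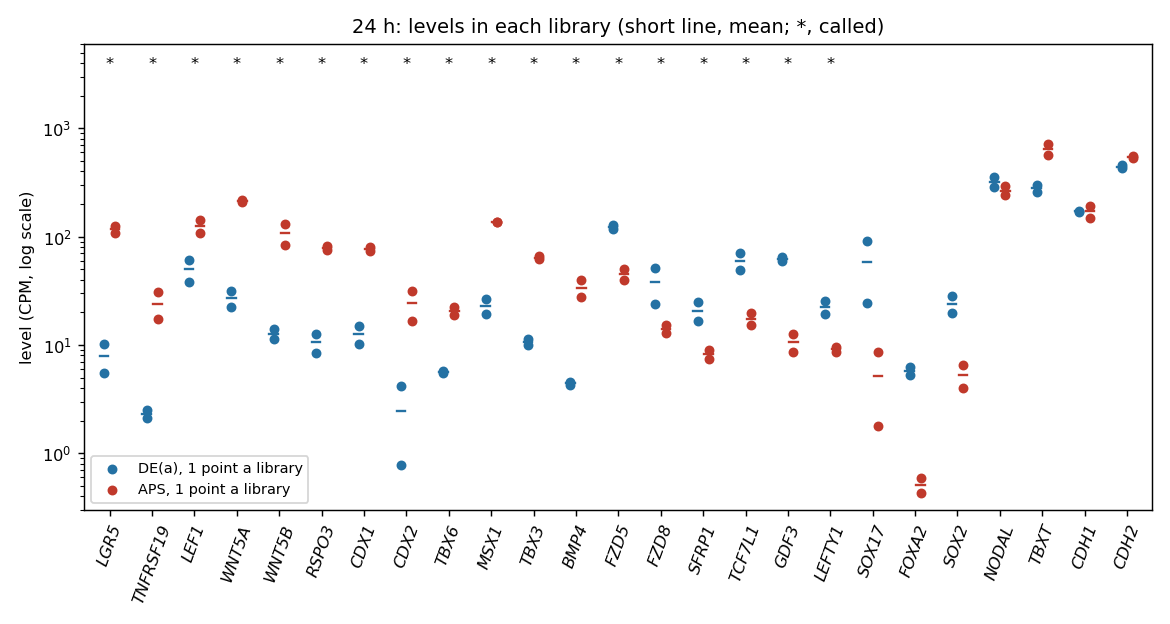
CPM on a log scale for 25 genes in each DE(a) library (blue) and each APS library (red), with short lines at the means and an asterisk over called genes. The Wnt and posterior genes on the left are higher in APS and the genes from FZD5 to LEFTY1 lower, with no overlap; SOX17, FOXA2, SOX2, NODAL, TBXT, CDH1 and CDH2 carry no asterisk.

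The RefSeq promoter windows of the called genes, 250 bases before to 50 after a start, were searched on both strands for 3 motifs, none of which contains another. A window was found for 12272 genes tested, 83 of those higher and 16 of those lower, and only the first window of a gene was used. CAGGTG, the E-box read by SNAI and ZEB repressors among others, was in 8 windows of genes that were higher (9.64%) and 5 of genes that were lower (31.2%), against 18.8% of all. From 100 bases before to 50 after the start it was in 3 of the higher (3.61%) and 3 of the lower (18.8%), against 8.57% of all. These shares rest on few windows and were not tested. CTTTGAT, a TCF and LEF site, was in 1 window of the higher genes (1.20%) and in none of the lower, against 1.46% of all. AATCCACA, the head of the FOXH1 site that works with SMAD2, was in none of either, against 0.448% of all. The windows of 4 genes are shown because they hold CAGGTG (in capitals, or its reverse complement CACCTG) and stand for both directions: WNT5A (chr3:55487257-55487556, minus strand) and MSGN1 (chr2:17816210-17816509, plus strand) were higher, and FZD5 (chr2:207769857-207770156, minus strand) and PRDM1 (chr6:106086086-106086385, plus strand) were lower, all on GRCh38.p14. For WNT5A and PRDM1 the first of several windows is shown. The match begins 204 bases before the start in WNT5A, 126 in MSGN1, 22 in FZD5 and 90 in PRDM1. A match is a description of the letters and not a sign of binding.
WNT5A: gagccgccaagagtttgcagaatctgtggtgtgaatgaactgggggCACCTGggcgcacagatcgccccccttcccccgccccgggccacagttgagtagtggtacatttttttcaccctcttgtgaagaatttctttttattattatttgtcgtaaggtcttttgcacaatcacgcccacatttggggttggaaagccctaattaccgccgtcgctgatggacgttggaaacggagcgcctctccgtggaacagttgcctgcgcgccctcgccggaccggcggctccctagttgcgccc
MSGN1: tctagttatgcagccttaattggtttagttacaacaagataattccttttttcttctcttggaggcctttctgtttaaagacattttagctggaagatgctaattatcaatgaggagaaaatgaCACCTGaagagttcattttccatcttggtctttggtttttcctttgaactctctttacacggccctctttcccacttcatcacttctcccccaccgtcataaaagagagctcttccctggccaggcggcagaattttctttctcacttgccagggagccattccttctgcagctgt
FZD5: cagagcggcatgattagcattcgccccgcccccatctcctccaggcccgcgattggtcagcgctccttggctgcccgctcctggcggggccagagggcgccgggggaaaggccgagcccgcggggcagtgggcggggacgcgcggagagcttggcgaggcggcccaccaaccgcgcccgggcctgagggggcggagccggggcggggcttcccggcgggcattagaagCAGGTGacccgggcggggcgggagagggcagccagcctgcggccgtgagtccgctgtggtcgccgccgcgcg
PRDM1: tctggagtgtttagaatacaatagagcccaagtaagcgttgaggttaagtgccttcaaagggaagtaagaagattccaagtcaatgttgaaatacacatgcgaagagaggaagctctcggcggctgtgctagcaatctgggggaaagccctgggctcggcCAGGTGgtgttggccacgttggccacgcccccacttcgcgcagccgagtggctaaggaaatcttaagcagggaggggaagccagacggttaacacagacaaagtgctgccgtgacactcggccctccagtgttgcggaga

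The posterior and presomitic genes that were called were all higher in APS. Over all genes tested, 0.609% were called higher and 0.123% lower, so a lack of lower calls does not set these lists apart. Of 30 presomitic mesoderm genes tested, 8 were higher (MSGN1, TBX6, CDX1, CDX2, WNT5B, RSPO3, FOXC1 and APLNR) and none lower, with a median log2 fold change of 0.82 over the 26 members above 3 counts in both groups. Of 31 HOX and CDX genes, 4 were higher, among them HOXB3, CDX1 and CDX2, and none lower. In 21 of those 31 both DE(a) libraries were at or under 3 counts, and the median over the 10 above that in both groups was 2.61. The summed level of the list was 16.4 and 23.45 CPM in DE(a) and 130 and 155.5 CPM in APS. CDX1 and CDX2 are on both of these lists and among the Wnt targets above. WNT5B and RSPO3 are also in the Wnt families, so these counts are not independent.

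CDX2, a homeobox regulator of posterior identity, stood at 0.778 and 4.13 CPM in DE(a) and 16.5 and 31.8 CPM in APS, with a log2 difference of 3.28 (SE 0.49, adjusted p = 0.000971). When only the 4 libraries were fitted, CDX2 was not called (edgeR, adjusted p = 0.0888). The DE(a) libraries lay far apart, and the log2 fold change ranged from 2.52 to 4.93 with each library left out in turn, called in each. CDX1 stood at 10.2 and 14.9 CPM in DE(a) and 73.3 and 79.98 CPM in APS, with a log2 difference of 2.59 (SE 0.33, adjusted p = 0.000194), whereas CDX4 stood at 2.13 and 0.806 CPM in DE(a) and 1.29 and 0.458 CPM in APS and was not called (adjusted p = 0.949). HOXB3 stood at 0.311 and 0.483 CPM in DE(a) and 3.83 and 7.19 CPM in APS, with a log2 difference of 3.76 (SE 0.68, adjusted p = 0.00504), and of the 4 fits with a library left out it was called only in that without the first APS library. For 15 of the 31 list members both APS libraries lay above both DE(a) libraries, and for none below. Over all genes tested the shares were 17.0% above and 12.3% below.

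TBX6, which commits cells to presomitic mesoderm, stood at 5.76 and 5.54 CPM in DE(a) and 19.1 and 22.3 CPM in APS, with a log2 difference of 1.86 (SE 0.26, adjusted p = 0.00036); it lies on chromosome 16 from 30085793 to 30091924. MSGN1, which acts with it, had 1 count in each DE(a) library and 56 and 62 in the APS libraries, a ratio of 52.1 with an exact 95% interval of 14.1 to 435 that covers counting error only. TBXT, which marks the whole streak, stood at 259 and 298 CPM in DE(a) and 571 and 716 CPM in APS, and the difference was not called (1.19, SE 0.39, adjusted p = 0.314). It was called in the fit of only the day 1 and control libraries and when genes with low counts were kept. Among 16 streak factors, APLNR was the member that passed, at 141 and 93.9 CPM in DE(a) and 417 and 303 CPM in APS (1.604, SE 0.38, adjusted p = 0.0457), and it was not called with any library left out. MIXL1 stood at 1368 and 1549 CPM in DE(a) and 1745 and 1755 CPM in APS and EOMES at 666 and 631 CPM in DE(a) and 465 and 429.9 CPM in APS, with log2 fold changes of 0.25 and -0.55, neither called.

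The BMP4 and MSX1 genes were higher in APS; neither medium held BMP4 protein. Of 27 BMP ligands, antagonists and targets tested, 2 were higher and none lower, with a median log2 fold change of 0.18. Among all genes tested, 0.609% were called higher and 0.123% lower. BMP4 itself stood at 4.57 and 4.28 CPM in DE(a) and 39.96 and 27.5 CPM in APS, with a log2 difference of 2.91 (SE 0.40, adjusted p = 0.000282); it lies on chromosome 14 from 53949736 to 53958761. MSX1, a homeobox target of BMP and Wnt signaling, stood at 19.1 and 26.6 CPM in DE(a) and 136 and 136 CPM in APS, with a log2 difference of 2.56 (SE 0.38, adjusted p = 0.000774), and was not called without the first DE(a) library. The immediate BMP target ID1 stood at 121 and 62.5 CPM in DE(a) and 73.5 and 55.7 CPM in APS and ID3 at 156 and 90.7 CPM in DE(a) and 123 and 76.8 CPM in APS, neither called (adjusted p = 0.955 and 0.975).

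Of 23 lateral and cardiac mesoderm genes, 3 were higher (BMP4, TBX3 and LMO2) and none lower, against 0.609% and 0.123% of all genes tested. The T-box repressor TBX3 stood at 11.3 and 9.93 CPM in DE(a) and 62.2 and 65.9 CPM in APS, with a log2 difference of 2.57 (SE 0.26, adjusted p = 9.41e-06). LMO2, a cofactor of blood progenitors, stood at 0.830 and 1.83 CPM in DE(a) and 5.21 and 14.8 CPM in APS (2.90, SE 0.64, adjusted p = 0.031), and was not called without the first DE(a), the second DE(a) or the second APS library. HAND1, a defining lateral mesoderm factor, stood at 1.87 and 0.644 CPM in DE(a) and 8.34 and 4.71 CPM in APS and FOXF1 at 1.66 and 0.644 CPM in DE(a) and 7.52 and 8.01 CPM in APS. Both were above in both APS libraries, with log2 fold changes of 2.35 and 2.73, but neither was called. HAND1 was called by DESeq2, FOXF1 in the fit of only the day 1 and control libraries, and both when genes with low counts were kept. Of 19 amnion and surface ectoderm genes, 3 were higher (WNT6, TBX3 and CDX2). All 3 are also on the lists above or of the Wnt ligands, and the amnion markers GATA3 and TFAP2A were not called. GATA3 stood at 2.64 and 0.805 CPM in DE(a) and 2.61 and 1.37 CPM in APS, and TFAP2A at 0.726 and 0.914 CPM in DE(a) and 0.615 and 1.20 CPM in APS.

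The called members of the Nodal and endoderm lists were each lower in APS. Of all genes tested, 0.609% were called higher and 0.123% lower. Of 30 activin and Nodal ligands, antagonists and targets, none was higher and 2 were lower (GDF3 and LEFTY1). DESeq2 called 4 of the 30 lower and 0 higher. At an unadjusted edgeR p under 0.05, 4 were lower and 5 higher. Of 25 definitive endoderm genes, none was higher and 2 were lower (LEFTY1 and PRDM1), with a median log2 fold change of -0.43 over the 24 members above 3 counts in both groups. DESeq2 called 4 of the 25 lower and 1 higher. At an unadjusted edgeR p under 0.05, 8 were lower and 2 higher. Both APS libraries were below both DE(a) libraries for 12 of those 25 and above for 6, against 12.3% and 17.0% of all genes tested.

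GDF3, a TGF-beta ligand that pairs with Nodal, had the largest fall among called genes above 10 CPM in a group. It stood at 64.5 and 59.8 CPM in DE(a) and 12.6 and 8.56 CPM in APS, with a log2 difference of -2.57 (SE 0.52, adjusted p = 0.0155); it lies on chromosome 12 from 7689784 to 7695775. LEFTY1, a secreted Nodal antagonist induced by Nodal itself, stood at 25.2 and 19.1 CPM in DE(a) and 9.58 and 8.68 CPM in APS (-1.297, SE 0.29, adjusted p = 0.0385), and its neighbour LEFTY2 at 26.8 and 24.3 CPM in DE(a) and 11.4 and 9.54 CPM in APS, which was not called (-1.302, SE 0.38, adjusted p = 0.181). The 2 are near-identical paralogs, so the split of reads between them is uncertain. LEFTY2 was called by DESeq2 and when genes with low counts were kept. GDF3 and LEFTY1 were not called with any library left out, at adjusted p up to 0.369 and 0.473. NODAL stood at 356 and 288 CPM in DE(a) and 292 and 240.4 CPM in APS and CER1, a secreted antagonist of Nodal, BMP and Wnt, at 1796 and 1319.8 CPM in DE(a) and 1159.6 and 569.5 CPM in APS. Neither was called, at adjusted p of 0.974 and 0.887.

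The endoderm markers SOX17 and FOXA2 had lower values in APS and were not called. SOX17 stood at 91.7 and 24.3 CPM in DE(a) and 8.62 and 1.79 CPM in APS, with a log2 difference of -3.50 (SE 1.00, adjusted p = 0.178). The groups did not overlap, but in each medium the first replicate was well above the second. FOXA2 stood at 6.24 and 5.32 CPM in DE(a) and 0.426 and 0.595 CPM in APS, with a log2 difference of -3.50 (SE 1.07, adjusted p = 0.226), and was called when only the 4 libraries were fitted (adjusted p = 0.0132) or when genes with low counts were kept. PRDM1, a repressor used in endoderm and germ cells, stood at 12.97 and 10.7 CPM in DE(a) and 3.55 and 1.97 CPM in APS (-2.12, SE 0.47, adjusted p = 0.0299) and was not called with any library left out. The organizer factor GSC stood at 82.5 and 68.7 CPM in DE(a) and 39.8 and 42.6 CPM in APS (-0.89, SE 0.30, adjusted p = 0.329), and HHEX of the anterior endoderm at 2.90 and 2.05 CPM in DE(a) and 0.993 and 0.549 CPM in APS (-1.69, SE 0.49, adjusted p = 0.198), neither called. Both GSC and HHEX were called by DESeq2 and when genes with low counts were kept. GATA6, shared by endoderm and mesoderm, stood at 207 and 189 CPM in DE(a) and 229.9 and 236 CPM in APS and was not called.

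Of 29 pluripotency genes, 1 was lower (LEFTY1) and none higher, with a median log2 fold change of -0.38. Among all genes tested, 0.123% were called lower and 0.609% higher. Both APS libraries were below both DE(a) libraries for 14 of the 29 and above for 2, against 12.3% and 17.0% of all genes tested. NANOG stood at 156 and 154 CPM in DE(a) and 103 and 81.1 CPM in APS (-0.77, SE 0.45, adjusted p = 0.857). SOX2 stood at 28.3 and 19.9 CPM in DE(a) and 6.59 and 3.99 CPM in APS (-2.21, SE 0.68, adjusted p = 0.22), and was called in 4 of 6 other settings, among them the fits of only the 4 libraries (adjusted p = 0.027) and of the day 1 and control libraries (0.0222). POU5F1 is listed under several identifiers between which its reads may be split, so its level is uncertain; the first stood at 75.8 and 200.04 CPM in the DE(a) libraries and 89.2 and 105 CPM in the APS libraries.

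None of 35 FGF and ERK response genes was called by edgeR or DESeq2, where bFGF had been added in APS medium alone. Of all genes tested, 0.732% were called, so 0 of 35 neither sets this list apart nor shows a lack of response. By edgeR 3 of the 35 had an unadjusted p under 0.05, against 1208 of all 17895 genes tested. The median log2 fold change of the list was -0.11. Both APS libraries were above both DE(a) libraries for 5 members and below for 10, against 17.0% and 12.3% of all genes tested. The summed level was 3744 and 3438 CPM in DE(a) and 3375 and 3815 CPM in APS. SPRY4, an ERK feedback inhibitor, stood at 288 and 236 CPM in DE(a) and 239 and 219.9 CPM in APS (-0.20, SE 0.36, adjusted p = 0.996), and the phosphatase DUSP6 at 92.8 and 58.5 CPM in DE(a) and 81.4 and 46.2 CPM in APS (-0.26, SE 0.39, adjusted p = 0.994). The ligand FGF8 stood at 27.2 and 27.6 CPM in DE(a) and 15.99 and 16.6 CPM in APS and FGF4 at 89.95 and 116 CPM in DE(a) and 68.3 and 70.6 CPM in APS, lower in both APS libraries and not called (adjusted p = 0.959 and 0.81).

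Neither cadherin was called at 24 h. CDH1 stood at 169 and 172 CPM in DE(a) and 149 and 194 CPM in APS, with overlapping groups and a log2 difference of -0.01 (SE 0.26, adjusted p = 1). CDH2 stood at 425 and 455 CPM in DE(a) and 529 and 555 CPM in APS, higher in both APS libraries but not called (0.28, SE 0.15, adjusted p = 0.789). Of 40 epithelial and EMT genes, 1 was higher, the repressor ZEB2, and none lower, with a median log2 fold change of 0.09. With 0.609% of all genes tested called higher and 0.123% lower, these counts do not set the list apart. ZEB2 stood at 8.19 and 9.29 CPM in DE(a) and 32.8 and 26.5 CPM in APS (1.74, SE 0.40, adjusted p = 0.0382), and was not called with any library left out (adjusted p up to 0.466). SNAI1, the EMT factor of the streak, stood at 35.3 and 26.7 CPM in DE(a) and 48.7 and 49.4 CPM in APS (0.65, SE 0.24, adjusted p = 0.431), SNAI2 at 2.91 and 3.34 CPM in DE(a) and 12.02 and 6.92 CPM in APS (1.59, SE 0.52, adjusted p = 0.298) and vimentin (VIM) at 515 and 303 CPM in DE(a) and 881 and 542 CPM in APS (0.79, SE 0.32, adjusted p = 0.55); none of these was called.

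The largest rise among called genes above 10 CPM in a group was that of HAPLN1, which links hyaluronan to proteoglycans in the matrix. It stood at 0.934 and 3.17 CPM in DE(a) and 70.5 and 59.2 CPM in APS, with a log2 difference of 4.97 (SE 0.63, adjusted p = 0.000154); it lies on chromosome 5 from 83637805 to 83720855. RASGRP3, an activator of RAS proteins, stood at 2.76 and 3.06 CPM in DE(a) and 35.7 and 33.8 CPM in APS, with a log2 difference of 3.56 (SE 0.34, adjusted p = 5.06e-06). PCDH18 stood at 9.23 and 14.7 CPM in DE(a) and 80.99 and 58.96 CPM in APS and PCDH19 at 4.67 and 3.97 CPM in DE(a) and 27.5 and 25.1 CPM in APS, with log2 fold changes of 2.53 and 2.59, the 2 of 13 non-clustered protocadherins tested that were called. NRP1, a co-receptor of semaphorins and VEGF, stood at 22.5 and 19.2 CPM in DE(a) and 123 and 132 CPM in APS (2.60, SE 0.36, adjusted p = 0.000335). Of 9 class 3 semaphorins and neuropilins, NRP1 and SEMA3C were higher and SEMA3F lower, the last at 102 and 68.2 CPM in DE(a) and 28.1 and 21.8 CPM in APS (-1.79, SE 0.29, adjusted p = 0.0016). SEMA3C was called only in the fit without the first APS library among the 4 with a library left out (adjusted p up to 0.503). COLEC12, a scavenger receptor, stood at 31.9 and 35.6 CPM in DE(a) and 174 and 178 CPM in APS (2.37, SE 0.30, adjusted p = 0.000141). These genes, other than HAPLN1, RASGRP3 and SEMA3F, were picked out after their values had been seen. Calls over all genes tested came to 0.609% higher and 0.123% lower.

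ODC1, the rate-limiting enzyme of polyamine synthesis and a MYC target, stood at 660.0 and 697 CPM in DE(a) and 2022 and 1791 CPM in APS (1.48, SE 0.23, adjusted p = 0.00119). SMAD3, which was on no list and carries the activin signal to the nucleus, was higher in the medium with less activin, at 40.3 and 40.3 CPM in DE(a) and 75.4 and 88.1 CPM in APS (1.00, SE 0.18, adjusted p = 0.00443); it was called only in the fit without the first APS library among the 4 with a library left out (adjusted p up to 0.103). Of 33 cell cycle genes, 2 were higher and none lower, against 0.609% and 0.123% of all genes tested. CDK6 stood at 77.3 and 92.1 CPM in DE(a) and 139 and 174 CPM in APS (0.87, SE 0.18, adjusted p = 0.0212). The stress-inducible GADD45G stood at 1.66 and 1.94 CPM in DE(a) and 8.27 and 9.58 CPM in APS (2.29, SE 0.31, adjusted p = 0.000295). CDK6 was called only in the fit without the first APS library among the 4 with a library left out (adjusted p up to 0.418). ODC1 was not called without the first DE(a) library (adjusted p = 0.0562). Other large falls among called genes above 10 CPM in a group were those of CALB1, a calcium-binding protein, at 52.7 and 46.1 CPM in DE(a) and 16.6 and 9.75 CPM in APS (-1.92, SE 0.36, adjusted p = 0.00625), and PACSIN1, which acts in endocytosis, at 15.8 and 14.9 CPM in DE(a) and 3.30 and 4.03 CPM in APS (-2.07, SE 0.38, adjusted p = 0.00499). CALB1, SEMA3F and PACSIN1 were not called without the first DE(a) or the second APS library (adjusted p up to 0.255), and PACSIN1 not without the first APS library. The receptor tyrosine kinase ERBB2 was also lower, at 193 and 154 CPM in DE(a) and 85.5 and 105 CPM in APS (-0.88, SE 0.18, adjusted p = 0.0137), and not called without the first DE(a) or the first APS library (adjusted p up to 0.304). ODC1, SMAD3 and ERBB2 were likewise picked out after their values had been seen.

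No member was called in the lists for glycolysis and hypoxia (35 genes tested), cholesterol synthesis (24), the stress and ATF4 response (22) and neural genes (14), with median log2 fold changes of -0.04, -0.09, 0.10 and -0.40. In the same order 2, 1, 0 and 2 of them had an unadjusted p under 0.05, and DESeq2 called 0 in each. With 0.732% of all genes tested called, 0 calls do not set these lists apart. Of 13 primordial germ cell genes 1 was lower (PRDM1), of 19 organizer genes 1 was lower (FZD8), and of 33 adhesion, guidance and matrix genes 2 were higher (HAPLN1 and APLNR). The neural markers PAX6 and SOX1 and the germ cell marker DDX4 were at 6.65 counts or fewer in every one of the 4 libraries and were not tested, and NANOS3 had at most 3 counts in each. Over all 20 lists, 28 different genes were called.

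**Figure D3:**
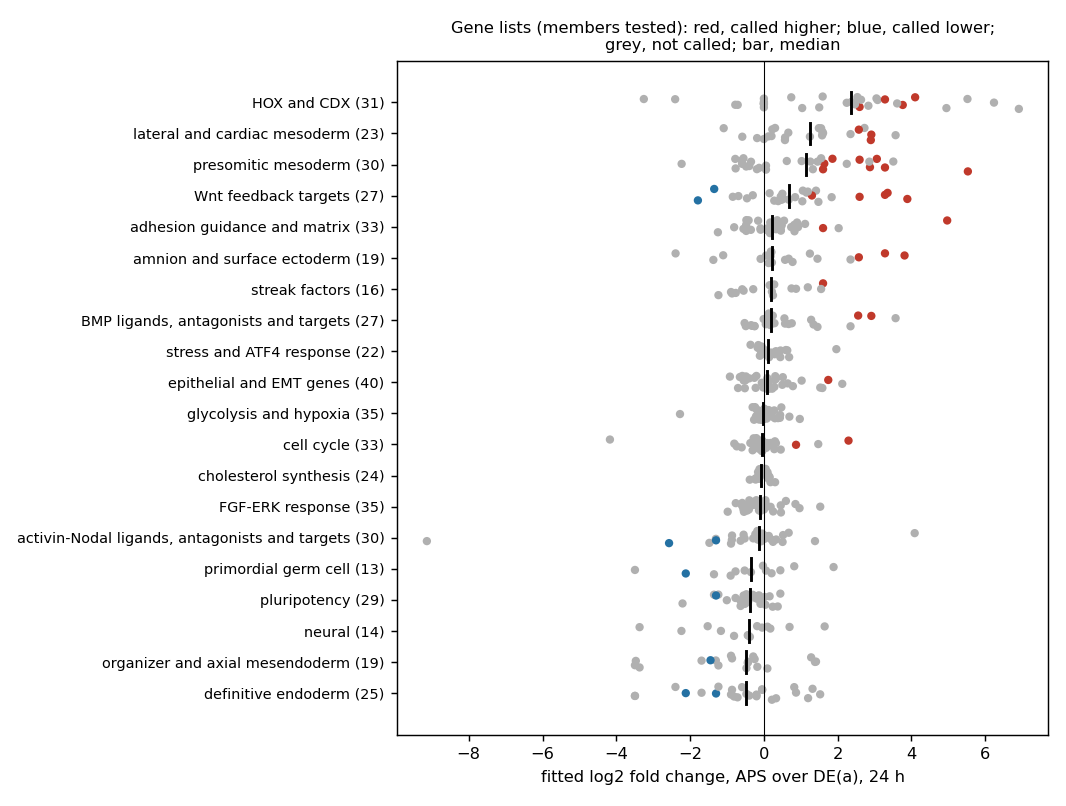
Fitted log2 fold changes (APS over DE(a)) of the tested members of 20 gene lists, 1 point a gene, red for called higher, blue for called lower and grey for not called, with a bar at the list median over all tested members and lists ordered by it. The HOX and CDX, lateral mesoderm, presomitic and Wnt lists lie farthest to the right, and the FGF-ERK list has no called member; many points of the HOX list are genes near 0 counts.

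The genes that differed between DE(a) and APS were followed in the other day 1 media, whose libraries entered the fit only through the shared normalization, filter and spread. MPS medium held the activin and bFGF doses of APS with 6 µM CHIR99021 and 40 ng/ml BMP4, and PPS medium the same without activin. Of the 109 genes higher in APS, both MPS libraries were above both APS libraries for 91 (83.5%), against 18.7% of all genes tested, and below for 4 (3.67%), against 21.3%. Of the 22 lower in APS, both MPS libraries were below both APS libraries for 13 (59.1%) and above for 3 (13.6%). In PPS the 109 genes divided, with 56 above both APS libraries (51.4%, against 27.3% of all genes tested) and 34 below (31.2%, against 20.9%). Each of these counts uses the same APS libraries that chose the genes, so they are a description.

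Single genes show both patterns. WNT5A averaged 829 CPM in MPS and 744 CPM in PPS, and MSX1 468 and 748 CPM, against 136 CPM in both APS libraries. LGR5 averaged 174 CPM in MPS and 29.4 CPM in PPS, and RSPO3 53.2 and 9.79 CPM, so that both were lower in PPS than in either APS library. FZD8, lower in APS than in DE(a), averaged 62.1 CPM in MPS. CDX1 and RSPO3 had no count in either library of the undifferentiated control.

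**Figure D4:**
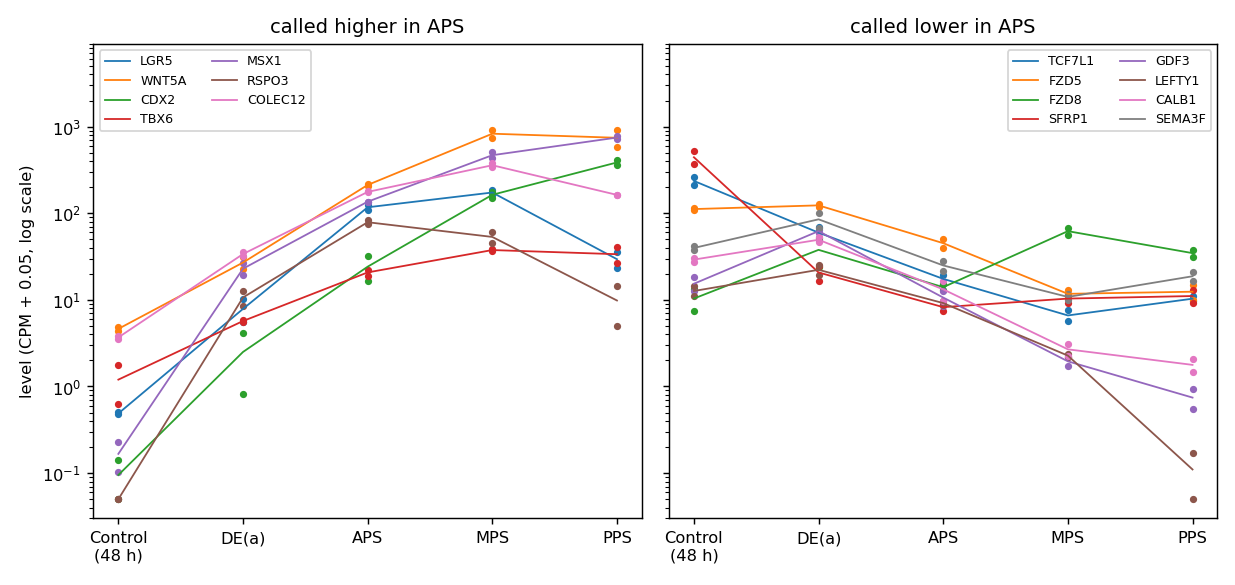
CPM plus 0.05 on a log scale in the control, DE(a), APS, MPS and PPS for 7 genes called higher (left) and 8 called lower (right) in APS; points are libraries and lines join the means, in an order of media set for the plot. All 7 genes on the left are lowest in the control and higher in APS than in DE(a), LGR5 and RSPO3 fall again in PPS, and FZD8 on the right is higher in MPS and PPS than in APS.

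Whether the difference between the media remained on the second day was read from cells moved from APS or DE(a) into the same medium until 48 h. These libraries are separate from those at 24 h. In DE(b) medium (100 ng/ml activin and 250 nM LDN, a BMP receptor inhibitor) 35 genes were higher after APS (0.196% of genes tested) and 49 lower (0.274%), together 0.469%. The labels give PM medium as bFGF, LDN and the activin receptor inhibitor A-8301, but elsewhere the study describes it with CHIR99021, so whether the PM cultures held CHIR99021 is uncertain. In PM medium 0 were higher and 10 lower by edgeR (0.0559%). At an unadjusted p under 0.05, 223 of the 17895 genes were higher and 595 lower, and DESeq2 called 9 higher and 89 lower. In LM medium (BMP4, A-8301 and the Wnt secretion inhibitor IWP2) 264 were higher (1.48%) and 555 lower (3.10%), together 4.58%.

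Few of the 24 h calls passed the threshold again at 48 h. In DE(b) and LM their share was still above that of all genes tested. Of the 109 genes higher at 24 h, 9 were also higher after DE(b), none after PM and 16 after LM. The 9 were 8.26% of the 109, against 0.196% of all genes tested, and 25.7% of the 35. The 16 were 14.7% of the 109, against 1.48% of all genes tested, and 6.06% of the 264. In PM no gene at all was called higher. Of the 22 lower at 24 h, 1 was also lower after DE(b) (4.55%, against 0.274% of all genes tested). None was lower after PM (against 0.0559%) and 5 were after LM (22.7%, against 3.10%). Over the 3 media, 105 of the 131 genes were called the same way in none, 21 in 1, 5 in 2 and 0 in all 3. The 5 were HAPLN1, HOXB3, MSX1, PRTG and WNT5A, each higher after DE(b) and after LM. The median log2 fold change of the 109 genes went from 1.65 at 24 h to 0.31 after DE(b), 0.03 after PM and 0.12 after LM. In sign, 77 of the 109 were also higher after APS in DE(b) (70.6%, against 47.2% of all genes tested), 60 in PM (55.0%, against 48.4%) and 64 in LM (58.7%, against 49.7%). Of the 22, 18 were also lower in DE(b) (81.8%, against 50.9%), 15 in PM (68.2%, against 50.1%) and 17 in LM (77.3%, against 48.7%). For DE(b) the change from the 24 h difference was itself called for 7 of the 109 and 1 of the 22, against 0.0559% of all genes tested. For PM the counts were 38 and 0 (against 0.291%), and for LM they were 38 and 4 (against 1.13%). The 109 and the 22 were chosen by the same 24 h difference that is subtracted in this change. That choice tilts these counts toward a called shrinkage, so they cannot show that the differences faded. The 24 h median and these counts are a description.

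HAPLN1 stood at 2.29 and 0.988 CPM in the DE(a)-DE(b) libraries and 27.1 and 28.9 CPM in the APS-DE(b) libraries, with a log2 difference of 4.09 (SE 0.64, adjusted p = 0.00403). In PM medium it stood at 27.1 and 39.6 CPM after DE(a) and 53.8 and 30.7 CPM after APS, with overlapping groups. Another 6 genes higher in APS at 24 h were lower after APS in LM: ARHGAP24, ATP12A, FOXC1, SALL1, TNFRSF19 and ZCCHC12. TNFRSF19 had a log2 difference of -2.65 (SE 0.48, adjusted p = 0.002) there, and FOXC1 had a log2 difference of -3.05 (SE 0.47, adjusted p = 0.00049).

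The difference at 48 h was tested against that at 24 h as a difference of differences. It was called for 10 genes in DE(b) (0.0559% of genes tested), 52 in PM (0.291%) and 202 in LM (1.13%). CDH1, whose groups overlapped at 24 h, was lower after APS in each medium of the second day. It stood at 115.5 and 83.4 CPM after DE(a) and 33.3 and 22.5 CPM after APS in DE(b), with a log2 difference of -1.82 (SE 0.27, adjusted p = 0.00324). In PM it stood at 127.5 and 81.1 CPM after DE(a) and 34.98 and 22.2 CPM after APS (-1.86, SE 0.27, adjusted p = 0.00694), and in LM at 185.5 and 209 CPM against 47.4 and 46.4 CPM (-2.01, SE 0.27, adjusted p = 0.000115). The groups did not overlap in any of the 3 media, but the 48 h call was lost in DE(b) without the second APS-DE(b) library (adjusted p = 0.114) and in PM without the first DE(a)-PM (0.371) or the second APS-PM library (0.415). The change from the 24 h difference was -2.003 (SE 0.37, adjusted p = 0.00644) in LM and -1.85 (SE 0.37, adjusted p = 0.0245) in PM, both called, and -1.81 (SE 0.37, adjusted p = 0.0655) in DE(b), not called. In LM the call held with each library left out. In PM it was lost without 5 of the 8 libraries (without either DE(a) library or the second APS library at 24 h, the first DE(a)-PM or the second APS-PM library), at log2 values from -1.86 to -1.504 and adjusted p up to 0.195.

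The 24 h differences of TBX6 and CDX2 were not seen in PM medium. TBX6 in PM medium stood at 145.5 and 169 CPM after DE(a) and 163 and 171 CPM after APS, and the difference changed from 24 h by -1.77 (SE 0.35, adjusted p = 0.0237). That call was lost without 6 of the 8 libraries (all but the first APS library at 24 h and the first DE(a)-PM library), at adjusted p up to 0.146. CDX2 in PM stood at 175 and 206 CPM after DE(a) and 166 and 194 CPM after APS, a change of -3.36 (SE 0.63, adjusted p = 0.0201). It ranged from -4.995 to -2.58 with each library left out, and was lost without the second APS or first DE(a) library at 24 h or without either APS-PM library (adjusted p up to 0.146). The TBX6 change in LM was -2.02 (SE 0.38, adjusted p = 0.00818), where all 4 libraries were at or below 5.27 CPM; it was lost without the second APS-LM library (adjusted p = 0.0551). CDH2 in LM stood at 211 and 208 CPM after DE(a) and 106 and 129.5 CPM after APS (-0.76, SE 0.15, adjusted p = 0.00371), a change from 24 h of -1.05 (SE 0.21, adjusted p = 0.0118). Without the first APS-LM library neither was called (adjusted p = 0.0789 and 0.0703), nor was the change without the first DE(a) library at 24 h (0.0663). SOX17 in DE(b) stood at 330.4 and 439.6 CPM after DE(a) and 401 and 518 CPM after APS and was not called (0.27, SE 0.86, adjusted p = 0.983), while in LM it was lower after APS (-4.75, SE 1.07, adjusted p = 0.0135), though not called without the second APS-LM (adjusted p = 0.157) or the first DE(a)-LM library. When only the libraries compared were fitted, the CDH1 change in LM remained called, and those of CDH1 (adjusted p = 0.389), TBX6 (0.0661) and CDX2 (0.436) in PM and of TBX6 (0.0522) and CDH2 (0.171) in LM did not. FOXA2 was also called lower after APS in LM, at 34.6 and 28.8 CPM after DE(a) and 2.28 and 0.483 CPM after APS. Its log2 difference there ranged from -5.91 to -3.79 with each library left out, and the call was not kept in each. The SOX17 and FOXA2 differences of differences were not called in any of the 3 media.

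**Figure D5:**
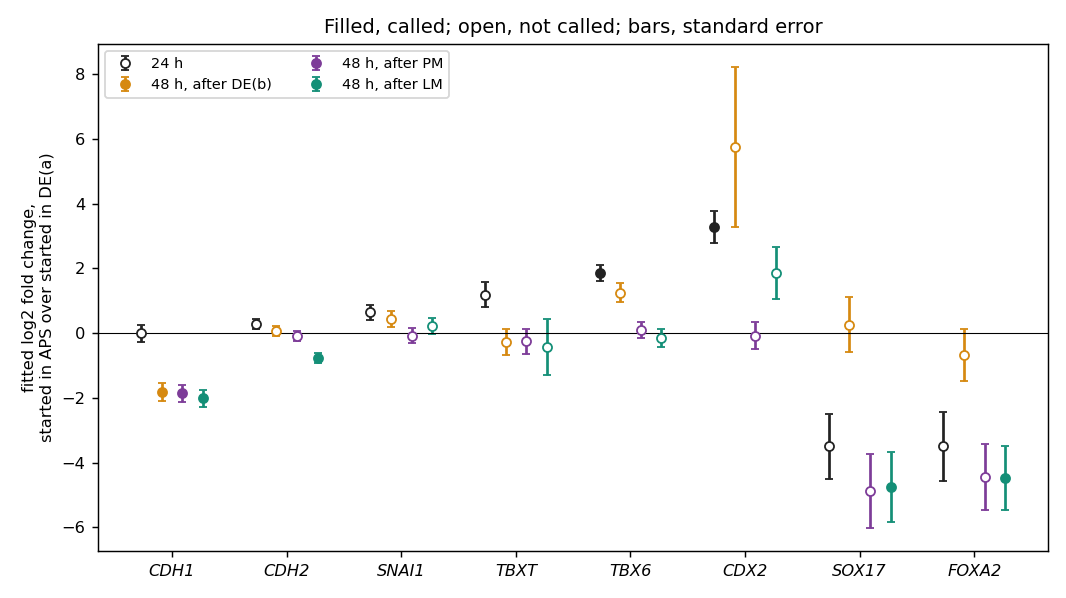
Fitted log2 fold changes (cells started in APS over cells started in DE(a)) with standard errors for 8 genes at 24 h (black) and at 48 h after DE(b) (orange), PM (purple) and LM (green); filled points were called. CDH1 lies at 0 at 24 h and between -2.01 and -1.82 in the 3 media at 48 h, and TBX6 and CDX2 are filled at 24 h only.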

How the data were processed

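Total RNA of ESI017 cells was sequenced by the authors as strand-specific poly(A) libraries with paired reads. Per the labels and methods, Salmon 1.10.2 was used against GRCh38, with R 4.4.2; the annotation release is not given in the sources used here. The deposited values are estimated counts per gene in 1 table per replicate, not normalized, and were rounded here; 0 columns lacked a sample.

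Counts of 34 libraries were fitted with edgeR 4.0.16 in R 4.3.3: TMM normalization, filterByExpr by condition, 1 mean per condition, the quasi-likelihood test and Benjamini-Hochberg adjustment over 17895 genes. Residual degrees of freedom were 17, and the common dispersion came to 0.0611. CPM used library totals, which ranged over all libraries from 15522780 to 23439799. Counts of 3 or fewer were treated as the floor; intervals at the floor are exact conditional ones and cover counting error only. Coordinates are from GENCODE 44. The 2 replicates of a group differed by more than counting noise (chi-square per degree of freedom 55.9 for DE(a) and 67.0 for APS) and were not copies of 1 library; p-values measure only the spread between the samples called biological replicates.

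Genes named were the 10 largest rises and 10 largest falls among called genes above 10 CPM in a group without overlap, 8 core genes, up to 4 called members per direction of 20 lists, and fixed markers; every other gene named was picked after its values were seen. A result under this rule is not reported here. Comparison, members and lists were chosen with earlier results of these data known. Alternatives were RLE, no filter, a replicate block, fewer libraries, a 2-fold minimum, DESeq2 1.42.0, a pseudocount of 0.1 in place of 1 CPM for ratios within a replicate, a shorter promoter window and each library left out. On simulated data the fit called 33 of 100 genes given a log2 change of 1 and 65 of 100 given a log2 change of 2.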

Additional observations from a re-analysis of the deposited data

Results flagged for a closer look

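These results were picked out because the difference between APS and DE(a) at 24 h differed, by the test of the difference itself, from that at 48 h in the same second-day medium. The count of such genes came to 10 genes for DE(b), 52 for PM and 202 for LM. Among the 8 core genes, the 48 h difference minus the 24 h difference (log2) of CDH1 was -1.85 in PM and -2.003 in LM, that of TBX6 -1.77 in PM and -2.02 in LM, that of CDX2 -3.36 in PM and that of CDH2 -1.05 in LM. In each the negative sign means a lower relative level after APS at 48 h than at 24 h, and each compared 2 libraries a group. All day 2 groups differ from the 24 h groups in medium as well as in time, so the 2 cannot be told apart. Groups of 2 libraries are too small to test for a library far from its group.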

How the results depend on the processing

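The counts of called genes depend on the filter, the libraries fitted and the tool. With no filter on low counts 570 genes were called at 24 h (394 higher, 176 lower), 97 of them on a list, and 609 after DE(b), 444 after PM and 1517 after LM, with 422, 458 and 786 differences of differences. With only the libraries compared, 73 were called at 24 h (61 higher, 12 lower), 0 after DE(b), 0 after PM and 483 after LM, with 2, 11 and 85 differences of differences, and of the core genes named for such a change only CDH1 in LM remained called. DESeq2 called 266 at 24 h (212 higher, 54 lower), 52 of them on a list, 245 after DE(b) and 98 after PM. A replicate block called 194 genes at 24 h (159 higher, 35 lower), 138 after DE(b), and 33 differences of differences in DE(b) and 326 in LM. The replicate numbers share no stated source, though each replicate was deposited as a table of its own. The deviations of same-numbered libraries correlated over 0.1 in 96 of 136 pairs of conditions (lowest -0.196, median 0.162, APS with DE(a) 0.316), so the block was not used as the main design. RLE scaling and a 2-fold minimum kept the 24 h count within 1.5 times, as did the day 1 and control libraries alone (111 called, of which 73 were among the 131). The block kept all 131 calls and also called AXIN2 (adjusted p = 0.0214) and SOX2 (0.00454), and with no filter AXIN2 was called as well (4.84e-06).

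With each library left out, the count at 24 h ranged from 37 to 104, with 34 to 90 higher, 3 to 21 lower and 13 to 22 on a list. It ranged from 14 to 41 after DE(b), from 0 to 116 after PM (116 without the second DE(a)-PM library) and from 261 to 640 after LM. Differences of differences ranged from 2 to 13 in DE(b), 17 to 87 in PM and 78 to 178 in LM. Differences that were not called and changed sign with a library left out were, at 24 h, CDH1 (-0.21 to 0.15), GATA3 (-0.43 to 1.27), DPPA3 (-1.44 to 0.23), DUSP6 (-0.74 to 0.10), TFAP2A (-0.42 to 0.51), GABRP (-0.053 to 0.54) and POU5F1 (-1.07 to 0.34). In PM they were SNAI1 (-0.27 to 0.12), TBXT (-1.08 to 0.39), CDX2 (-0.20 to 0.063), CDH2 (-0.20 to 0.013) and TBX6 (-0.021 to 0.22), and in LM SNAI1 (-0.011 to 0.49) and TBXT (-1.89 to 0.24). The differences of differences of SOX17 in PM (-3.93 to 1.94) and LM (-3.06 to 0.29) and of FOXA2 in PM (-3.18 to 1.48) did so too. Where the cause of a change is not set by the alternative itself, it was not tested. Genes near the floor of 3 counts are limited by depth.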
